A study of Homo sapiens with 9 samples.

Results

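The genes described here are 10 members of the BCL2 family, out of 63241 genes in each deposited table: BCL2, BCL2L1, MCL1, BCL2A1, BCL2L11, BMF, BIK, BBC3, BAX and BAK1. They were chosen by name, as the rows whose Ensembl ID maps to these symbols, with earlier results of these data known. Their counts and medians, set beside those of all genes, are therefore descriptions. All 10 had an ID in both tables and all 10 passed the filter on low counts, BCL2A1 only through the PMA libraries, where it was highest. RNA selected by its poly(A) tail was sequenced from MEG-01, a line of human megakaryoblasts grown from chronic myeloid leukaemia. The 3 groups, each of 3 libraries, were cells labelled control (with no vehicle named), cells treated with As2S2 (arsenic disulfide) and cells treated with PMA (a phorbol ester that switches on protein kinase C and is used to push such cells to differentiate into megakaryocytes). Dose and time of treatment are not stated in the labels. Nothing in them says that the replicates are independent cultures, and the p-values therefore reflect only how these libraries vary, which may be technical. All libraries come from 1 leukaemic line.

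Proteins of the BCL2 family decide whether the outer membrane of the mitochondrion stays closed. Survival members (the proteins of BCL2, BCL2L1, MCL1 and BCL2A1) hold the pore-forming members BAX and BAK1 in check, and BH3-only members (the proteins of BCL2L11, BMF, BIK and BBC3) block the survival members or activate the pore-formers directly. Once BAX or BAK1 opens the membrane, cytochrome c leaves and starts the caspases. In megakaryocytes and platelets BCL-xL, the long protein of BCL2L1, is known as the main survival protein, and it restrains BAK1 there. Many members are also regulated as proteins, by phosphorylation and degradation, which RNA counts do not measure.

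The proteins bind each other through the BH3 helix, whose core holds a leucine and, 4 residues further on, a glycine or alanine followed by an aspartate. To show what the members share and where they differ, the 9 codons that start at this leucine are printed 5′ to 3′ from a GENCODE 29 transcript of each gene. Capitals mark the leucine codon and the codons for glycine or alanine and for aspartate.
BCL2: CTCcgccaggccGGCGACgacttctcc
BCL2L1: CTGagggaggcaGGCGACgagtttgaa
MCL1: TTAcgacgggttGGGGATggcgtgcag
BCL2L11: TTGcggcgtattGGAGACgagtttaac
BMF: CTTcagtgcattGCAGACcagttccac
BIK: CTGgcctgcatcGGGGACgagatggac
BBC3: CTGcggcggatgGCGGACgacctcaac
BAX: CTCaagcgcatcGGGGACgaactggac
BAK1: CTCgccatcatcGGGGACgacatcaac
The core of each of these 9 genes lay within a single coding exon of the transcript used (GRCh38 coordinates from GENCODE 29). Among the survival members it was at chr18:63318352-63318378 (minus strand, exon 2 of 3) for BCL2, chr20:31721925-31721951 (minus strand, exon 2 of 3) for BCL2L1 and chr1:150578868-150578894 (minus strand, exon 1 of 3) for MCL1. Among the BH3-only members it was at chr2:111150103-111150129 (plus strand, exon 4 of 5) for BCL2L11, chr15:40104198-40104224 (minus strand, exon 4 of 5) for BMF, chr22:43127716-43127742 (plus strand, exon 3 of 5) for BIK and chr19:47226582-47226608 (minus strand, exon 3 of 4) for BBC3. For the pore-formers it was at chr19:48955787-48955813 (plus strand, exon 3 of 6) for BAX and chr6:33575390-33575416 (minus strand, exon 4 of 6) for BAK1. BMF and BBC3 carry an alanine codon where the other genes carry a glycine codon. BCL2A1 had no match to this pattern in its 2 coding transcripts, which says only that these codons are not there. Gene counts sum over splice forms. Of 22 complete coding transcripts of BCL2L11, 13 hold the core and the others do not, and the short forms of MCL1 and BCL2L1 are known to promote death, so a gene count does not give the activity of the protein.

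Library totals ran from 18200468 to 20366837 counts. The filter on low counts left 14592 genes. In the control group replicate 2, and in the As2S2 group replicate 1, lay apart from the rest. Replicate pairs with either one had a chi-square per gene between 12.01 and 15.2, and the other pairs between 2.42 and 3.46, so results that rest on them are given with and without them. The fit without both was not planned, and the 2 libraries were picked from these same data, so its p-values are descriptions. With As2S2 it called 41 genes of the 6 lists described below, beside 30 with all libraries. Of 12 megakaryocyte markers, 9 reached 1 TPM in some library, and markers that include PF4 and VWF stayed under 1 TPM in every library. Their summed TPM was 282 to 307 in control, 222 to 259.7 with As2S2 and 195 to 219.8 with PMA. Within it the mean of ITGA2B was 189.7, 138 and 68.3 TPM and that of ITGB3 11.7, 19.4 and 51.5. All 5 granulocyte markers stayed under 1 TPM, as did 5 of 6 monocyte, 4 of 5 T cell, 4 of 5 B cell and 4 of 5 stromal markers. Of 4 endothelial markers 3 reached 1 TPM, with CDH5 under it. The summed TPM of 8 erythroid markers was 8082.5 to 8532.5 in control, 10260 to 11103 with As2S2 and 35069 to 35954 with PMA. Most of it was the fetal globin gene HBG2, whose mean TPM was 7723.4, 10105 and 35013, while KLF1 and ALAS2 in the same list had lower means with PMA than in control. TPM divides counts by transcript length and sets every library to the same total, so levels of different genes are compared on it. Fold changes were fitted to counts scaled by TMM, which sets the typical gene to no change. With PMA the scales differ. The median tested gene stood at 0.00 (log2) against control with TMM, at -0.26 with library totals alone and at -0.26 in a fit of log2(TPM + 1). The part of HBG2 in this shift was not tested. In bulk RNA, fewer cells with a transcript and less transcript per cell cannot be told apart.

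Among these 10 genes BCL2L1 held the highest level in every library and BAX came next. In control cells the levels were 122 ± 2.11 TPM for BCL2L1, 75.3 ± 8.70 for BAX, 38.4 ± 4.31 for MCL1, 22.3 ± 4.49 for BBC3, 16.1 ± 0.812 for BAK1, 11.9 ± 0.734 for BCL2L11 and 5.82 ± 0.830 for BCL2 (mean ± SD, n = 3). Neighbours in that order did not overlap between their libraries. BIK (1.19 ± 0.285 TPM), BMF (0.917 ± 0.210) and BCL2A1 (0.693 ± 0.216) followed, and neighbours among these 3 overlapped, so their order was not resolved. With As2S2 the order of the mean levels was the same, though BBC3 and BAK1 now overlapped. With PMA it changed: BAK1 and BCL2L11 stood above BBC3, and BCL2 came last at 0.837 ± 0.155 TPM, below BCL2A1 at 2.46 ± 0.445.

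**Figure D1:**
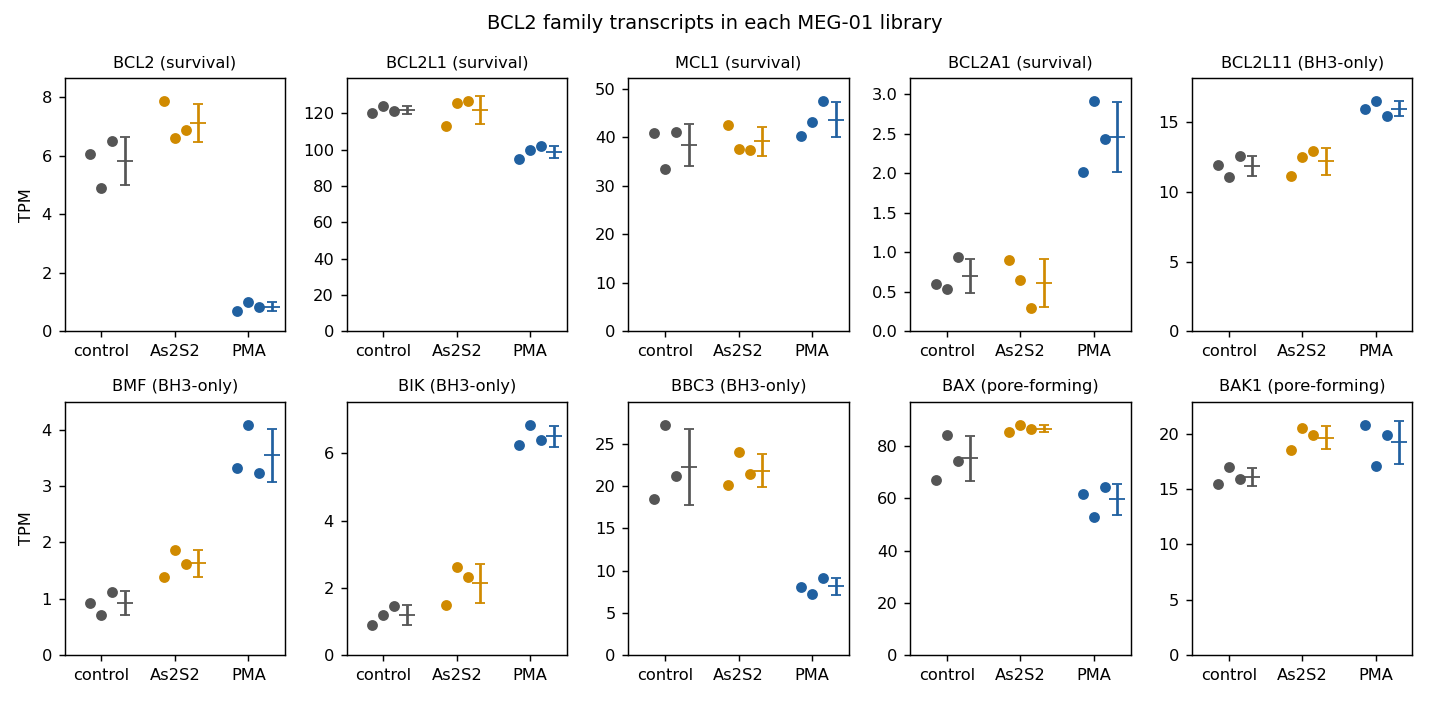
TPM of each of the 10 members (vertical axes, each from 0) in the 3 control, 3 As2S2 and 3 PMA libraries, as points, with the mean and SD beside them. BCL2 lay between 0.68 and 0.99 TPM with PMA and between 4.89 and 6.49 in control, while BIK lay between 6.26 and 6.84 with PMA and between 0.9 and 1.47 in control.

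In cells given the arsenic compound, 5 of the 10 members rose on TMM-scaled counts (BCL2, BMF, BIK, BAX and BAK1) and 0 fell. The other 5 did not pass (edgeR quasi-likelihood test, adjusted p under 0.05). At an unadjusted p under 0.05, 0 members fell, and 0 fell by DESeq2. Over all tested genes 39.9% were called in this comparison, 20.3% as higher and 19.6% as lower. The CPM of the As2S2 and control libraries did not overlap for 6 of the 10 members, beside 45.8% of all tested genes. The median log2 fold change of the 10 members was 0.26, beside 0.00 over all tested genes. Risers came from each of the 3 roles, with BCL2 the only survival member among them. In a fit of log2(TPM + 1) 3 members rose (BMF, BIK and BAK1), and no survival member passed (limma). Only BMF had a log2 fold change over 1 on TMM-scaled counts, a size at which 7.72% of all tested genes were called.

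With PMA the family split, with large changes in both directions. Of the 10 members 6 rose (MCL1, BCL2A1, BCL2L11, BMF, BIK and BAK1), 2 fell (BCL2 and BBC3), and BCL2L1 and BAX did not pass. BCL2A1 is among these only because the PMA libraries brought it past the filter on low counts. Under a stricter filter, which drops BCL2A1, 5 members rose. In this comparison 61.9% of all tested genes were called, 30.8% as higher and 31.1% as lower. The CPM of the PMA and control libraries did not overlap for 9 members, all but BAX, beside 67.5% of all tested genes. The median of the members was 0.60, beside 0.00 over all tested genes. On TMM-scaled counts the log2 fold changes of 4 members, BCL2, BCL2A1, BMF and BIK, were over 2 in size. Over all tested genes 5.57% were called with a change of that size. The fitted folds on these counts were 5.91 for BMF, 7.56 for BIK and 4.91 for BCL2A1. Ratios of mean TPM, with no pseudocount, were smaller, at 3.87, 5.465 and 3.54. The fit of log2(TPM + 1) also shrinks the changes of low genes through its pseudocount of 1. There BMF stood at 1.25, BIK at 1.78 and BCL2A1 at 1.03 (log2), each still past the test (limma). With As2S2 that fit gave 0.46 for BMF and 0.51 for BIK, also past it. Both comparisons use the same control libraries, so their values stand side by side here and were not correlated.

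**Figure D2:**
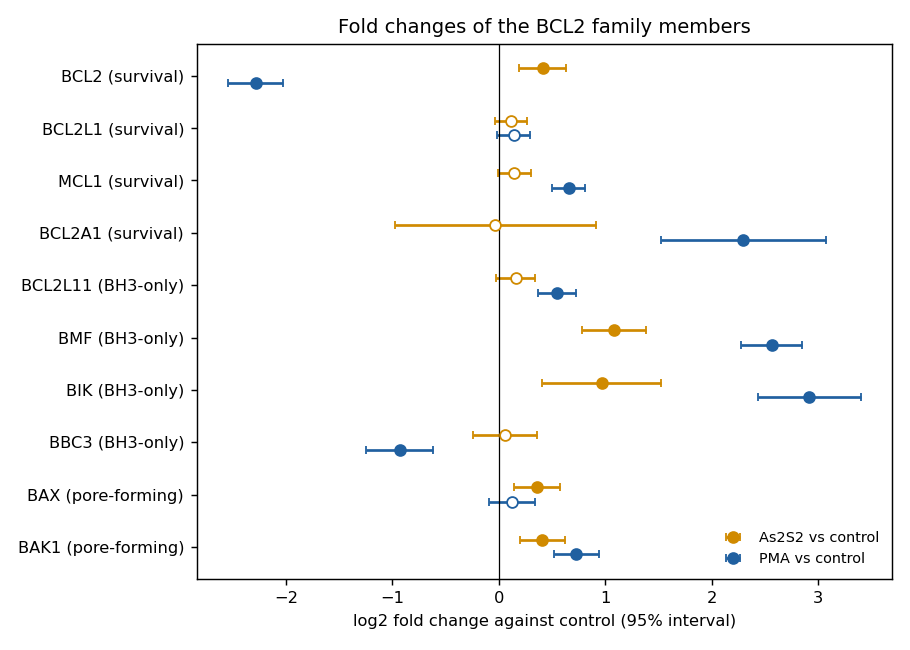
Log2 fold change of each member against control (horizontal axis) with its 95% interval, for As2S2 and for PMA. Filled points passed the test and open points did not. BCL2 stands on opposite sides of 0, at 0.41 with As2S2 and -2.29 with PMA, while BMF and BIK lie above 0 with both.

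Among the survival genes, BCL2, which encodes the founding member of the family, stood at 6.07, 4.89 and 6.49 TPM in control replicates 1 to 3, at 7.86, 6.62 and 6.87 with As2S2 and at 0.68, 0.99 and 0.84 with PMA. Every As2S2 library lay above every control library, and every PMA library far below both. BCL2 rose with As2S2, by 0.41 ± 0.10 on the log2 scale (SE of the fit, adjusted p = 0.00496, edgeR), and the call was lost in the fit of log2(TPM + 1), where the value was 0.26 (adjusted p = 0.150, limma). With PMA it fell by 2.29 ± 0.12 (adjusted p = 1.11e-10), from 2695 to 452 counts summed over 3 libraries, a fitted fold of 4.88. Tested directly, As2S2 stood above PMA by 2.70 ± 0.12 (adjusted p = 1.60e-11). In the authors' deposited table BCL2 stands at 0.40 with As2S2 and at -2.32 with PMA.

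BCL2L1 stood at 120, 124 and 122 TPM in control, at 113, 126 and 127 with As2S2 and at 95.2, 99.6 and 102 with PMA. Its As2S2 libraries spanned the control range, and its PMA libraries lay below it. On TMM-scaled counts, however, its log2 fold change with PMA was 0.14 ± 0.07 (adjusted p = 0.105, 95% interval -0.01 to 0.29), whereas in the fit of log2(TPM + 1) it was -0.30 (adjusted p = 0.00115, limma). The sign for BCL2L1 with PMA therefore depends on the scaling. The median tested gene itself stood at -0.26 in that TPM fit. The direct difference of As2S2 from PMA was -0.03 ± 0.07 (adjusted p = 0.779, 95% interval -0.18 to 0.13), and it too changed sign, to 0.15 with library totals alone (adjusted p = 0.0404) and 0.30 in the TPM fit (adjusted p = 0.00141). With As2S2 it was 0.11 ± 0.07 (adjusted p = 0.227, 95% interval -0.04 to 0.27). This passed without control replicate 2 (0.17, adjusted p = 0.0481), or when As2S2 replicate 1 was left out (0.18, 0.0308), or both (0.23, 4.5e-05). With PMA it passed without control replicate 2 (0.19, adjusted p = 0.0217), or when As2S2 replicate 1 was left out (0.13, 0.0466), or both (0.19, 0.000112). It also passed with all libraries under upper-quartile scaling (0.17, adjusted p = 0.0447) and in a fit of the PMA and control libraries only (0.14, 0.0495).

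MCL1 encodes a short-lived protein that is lost quickly when its transcription stops. It stood at 40.78, 33.45 and 41.05 TPM in control, at 42.53, 37.54 and 37.31 with As2S2 and at 40.24, 43.07 and 47.35 with PMA, so on this scale the groups overlapped. On TMM-scaled counts MCL1 rose with PMA, from 169 ± 10.3 to 267 ± 11.02 CPM (counts scaled by the effective library size, n = 3 each), or by 0.66 ± 0.07 on the log2 scale (adjusted p = 9.06e-07, edgeR). The call was lost in the TPM fit (0.18, adjusted p = 0.126, limma). With As2S2 it stood at 0.15 ± 0.07 (adjusted p = 0.124, 95% interval -0.01 to 0.30), and at 0.039 without control replicate 2 and As2S2 replicate 1 (adjusted p = 0.522).

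BCL2A1, a survival gene driven by NF-kB in blood cells, was near the floor of detection in control and with As2S2. It held 8, 7 and 13 counts in control, 12, 9 and 4 with As2S2 and 30, 45 and 39 with PMA. The PMA libraries were all above the others. It rose with PMA by 2.30 ± 0.37 (adjusted p = 4.40e-05), and in TPM it went from 0.693 ± 0.216 to 2.46 ± 0.445. With As2S2 the value was -0.03 ± 0.45 (adjusted p = 0.962), with a 95% interval of -0.98 to 0.91, so a change within that range was not detectable at this depth. The value ran from -0.39 to 0.29 when single libraries were left out.

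Of the BH3-only genes, BMF, whose protein is known to be tethered to the cytoskeleton in healthy cells, rose with both agents. It stood at 0.93, 0.70 and 1.12 TPM in control, at 1.39, 1.87 and 1.62 with As2S2 and at 3.32, 4.08 and 3.23 with PMA. The 3 groups did not overlap. Its log2 fold change was 1.08 ± 0.14 with As2S2 (adjusted p = 2.20e-05, edgeR) and 2.56 ± 0.14 with PMA (adjusted p = 1.17e-10), and As2S2 stood below PMA by -1.48 ± 0.13 (adjusted p = 4.19e-08). BIK, a BH3-only protein of the endoplasmic reticulum, followed the same order. It held 16, 21 and 27 counts in control, 26, 48 and 41 with As2S2 and 123, 141 and 135 with PMA. The lowest As2S2 library was 1 count below the highest control library, though above it in CPM (1.36 against 1.20). BIK rose by 0.97 ± 0.26 with As2S2 (adjusted p = 0.00785) and by 2.92 ± 0.23 with PMA (adjusted p = 1.43e-08). In the authors' deposited table its As2S2 value is 0.96 with an adjusted p of 0.0790. The direct difference of As2S2 from PMA was -1.95 ± 0.21 (adjusted p = 6.39e-07).

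BBC3, which encodes the BH3-only protein PUMA, went the other way with PMA. It stood at 18.47, 27.25 and 21.19 TPM in control, at 20.12, 24.01 and 21.45 with As2S2 and at 8.08, 7.17 and 9.17 with PMA. Control replicate 2 was the highest of all libraries. BBC3 fell with PMA by 0.93 ± 0.15 on the log2 scale (adjusted p = 4.47e-05, edgeR), and the value was -0.71 without control replicate 2 (adjusted p = 1.05e-05). With As2S2 it stood at 0.06 ± 0.14 (adjusted p = 0.791, 95% interval -0.24 to 0.36). Without control replicate 2 this became 0.29 (adjusted p = 0.0328), and with As2S2 replicate 1 left out as well 0.34 (0.00308), so whether it passed with As2S2 depended on 1 control library. Without control replicate 1 its sign turned, to -0.08 (adjusted p = 0.714).

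BCL2L11 encodes BIM, a BH3-only protein that ERK marks for degradation. It stood at 11.96, 11.09 and 12.55 TPM in control, at 11.11, 12.54 and 12.93 with As2S2 and at 15.99, 16.50 and 15.46 with PMA. The PMA libraries lay above all others, and the As2S2 and control libraries overlapped. BCL2L11 rose with PMA by 0.55 ± 0.08 (adjusted p = 2.84e-05, edgeR), and by 0.29 with library totals alone (adjusted p = 0.00767). With As2S2 it stood at 0.16 ± 0.08 (adjusted p = 0.153, 95% interval -0.02 to 0.34), and it passed once As2S2 replicate 1 was left out (0.21, adjusted p = 0.0479), or that library together with control replicate 2 (0.18, 0.0341).

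BCL2L11 also differed in a readout that a count does not show. The ratio of a gene's counts to its TPM is proportional to the length of the transcripts to which the authors' counting assigned its reads, and after setting each library to its median gene the ratio can be compared between libraries. For BCL2L11 this implied length was lower in all 3 PMA libraries, at -0.40, -0.32 and -0.34 (log2, relative to the control mean), than in the control libraries, at 0.01, -0.06 and 0.05, a change of -21.6%. The As2S2 libraries, at 0.03, -0.06 and 0.01, overlapped the control libraries. Of 10906 genes with at least 0.5 TPM in every library, 5.59% moved by as much in either direction with PMA, and 8.53% moved by at least 0.2 without overlap (3.35% with As2S2). The other 8 members measured this way changed by less than 0.2 with either agent. BMF scattered most, from -0.15 to 0.21 within the control libraries. Deposited counts of BCL2L11 were whole, with a tolerance of 0, in 3 of 9 libraries, and those of BMF and BCL2L1 in 6; the other members had whole counts in all 9. Splice forms were not counted here, so which forms of BCL2L11 differ was not tested.

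**Figure D3:**
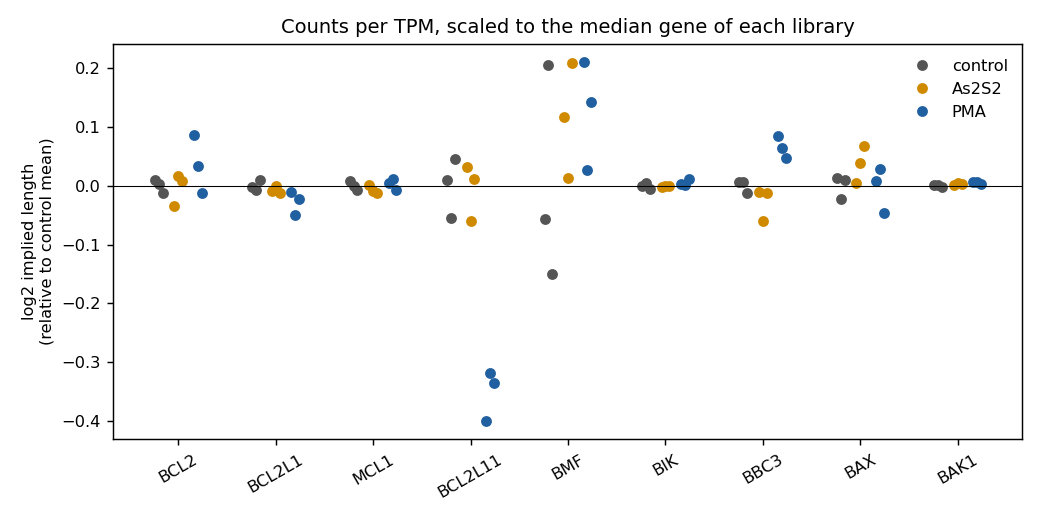
Implied transcript length of 9 members (log2 of counts per TPM, each library set to its median gene, relative to the control mean of the gene) in each library. Only BCL2L11 with PMA, at -0.40 to -0.32, lies more than 0.3 from 0. BCL2A1 is not drawn because it was under 0.5 TPM in a library.

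Both pore-forming genes rose with As2S2. BAX stood at 67.03, 84.38 and 74.51 TPM in control, at 85.45, 88.09 and 86.45 with As2S2 and at 61.55, 53.05 and 64.26 with PMA. Control replicate 2 came within reach of the As2S2 libraries, and the PMA libraries lay below the control range. BAX rose with As2S2 by 0.36 ± 0.10 (adjusted p = 0.00960, edgeR), a call lost in the TPM fit (0.21, adjusted p = 0.109, limma). With PMA the sign of BAX depended on the scaling: TMM-scaled counts gave 0.12 ± 0.10 (adjusted p = 0.300), library totals alone -0.13 (adjusted p = 0.224) and the TPM fit -0.33 (adjusted p = 0.00895). It passed as a rise of 0.24 without control replicate 2 (adjusted p = 0.0192). The direct difference of As2S2 from PMA was 0.24 ± 0.10 (adjusted p = 0.0540). It passed without control replicate 1 (adjusted p = 0.0289), control replicate 2 (0.00883), As2S2 replicate 1 (0.0345) or PMA replicate 1 (0.0461). It was larger, and passed, with library totals alone (0.41, adjusted p = 0.00109) and in the TPM fit (0.54, adjusted p = 0.000538).

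BAK1, the pore-former that limits the lifespan of platelets, rose with both agents. It stood at 15.44, 17.03 and 15.95 TPM in control, at 18.56, 20.59 and 19.89 with As2S2 and at 20.81, 17.08 and 19.91 with PMA. Every treated library lay above every control library, though PMA replicate 2 only just, at 17.08 against 17.03 in control replicate 2. The log2 fold change was 0.41 ± 0.10 with As2S2 (adjusted p = 0.00369) and 0.73 ± 0.10 with PMA (adjusted p = 8.25e-06, edgeR), and As2S2 stood below PMA by -0.32 ± 0.10 (adjusted p = 0.00984). For PMA against control the value was smaller on the other scales, 0.47 with library totals alone (adjusted p = 0.000347) and 0.24 in the TPM fit (adjusted p = 0.0337, limma). The call between As2S2 and PMA was lost without PMA replicate 1 (adjusted p = 0.0747) and with library totals alone (0.191), and in the TPM fit the difference was 0.03 (adjusted p = 0.766).

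Compared directly, As2S2 stood above PMA for 2 members (BCL2 and BBC3) and below it for 6 (MCL1, BCL2A1, BCL2L11, BMF, BIK and BAK1), while BCL2L1 and BAX did not pass. Over all tested genes 61.4% were called in this comparison, 30.9% as higher with As2S2 and 30.6% as lower. The CPM of the 2 groups did not overlap for 9 members, all but BCL2L1, beside 67.2% of all tested genes. MCL1 stood lower with As2S2 by -0.51 ± 0.07 (adjusted p = 1.48e-05, edgeR), a call lost in the TPM fit (adjusted p = 0.201). BCL2A1 differed by -2.33 ± 0.37, BCL2L11 by -0.39 ± 0.08 and BBC3 by 0.99 ± 0.15, each past the test.

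The sums by role and the shares of single genes in them are given here on the TPM scale. The 4 survival genes summed to 167 ± 3.53 TPM in control, 169 ± 3.97 with As2S2 and 146 ± 7.25 with PMA, where every library lay below control and As2S2. BCL2L1 made up 73.1 ± 2.65%, 72.2 ± 2.97% and 67.9 ± 1.05% of these sums, and MCL1 made up 23.0 ± 2.16%, 23.2 ± 2.33% and 29.9 ± 1.04%, in the same order. The share of BCL2 went from 3.48 ± 0.428% to 4.23 ± 0.493% with As2S2 and to 0.573 ± 0.0934% with PMA. BCL2 was thus a minor part of the survival transcripts in each group. The 4 BH3-only genes summed to 36.3 ± 3.99 TPM in control, 37.8 ± 3.49 with As2S2 and 34.2 ± 0.478 with PMA, ranges that overlapped. Within that sum BBC3 went from 61.1 ± 5.76% to 23.8 ± 3.02% with PMA, BMF and BIK together from 5.84 ± 1.21% to 29.4 ± 1.90%, and BCL2L11 from 33.1 ± 4.93% to 46.8 ± 1.45%. With As2S2 the share of BMF and BIK was 9.87 ± 1.28%. BAX and BAK1 summed to 91.4 ± 9.51, 106 ± 2.34 and 78.9 ± 7.64 TPM in control, As2S2 and PMA. The ratio of BAX to BCL2 in TPM was 13.3 ± 3.47 in control, 12.3 ± 1.25 with As2S2 and 73.5 ± 18.6 with PMA. No test was made on these sums and ratios. The direction with PMA is not the same on every scale. In mean TMM-scaled CPM, BCL2L1 went from 344.5 in control to 379 with PMA and MCL1 from 169 to 267. BCL2 went from 42.3 to 8.67 and BCL2A1 from 0.437 to 2.18. BAX went from 50.5 to 55.0 and BAK1 from 38.2 to 63.4. The lower survival and pore-forming sums with PMA are therefore stated for the TPM scale only. The median tested gene stood at -0.26 in the TPM fit.

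**Figure D4:**
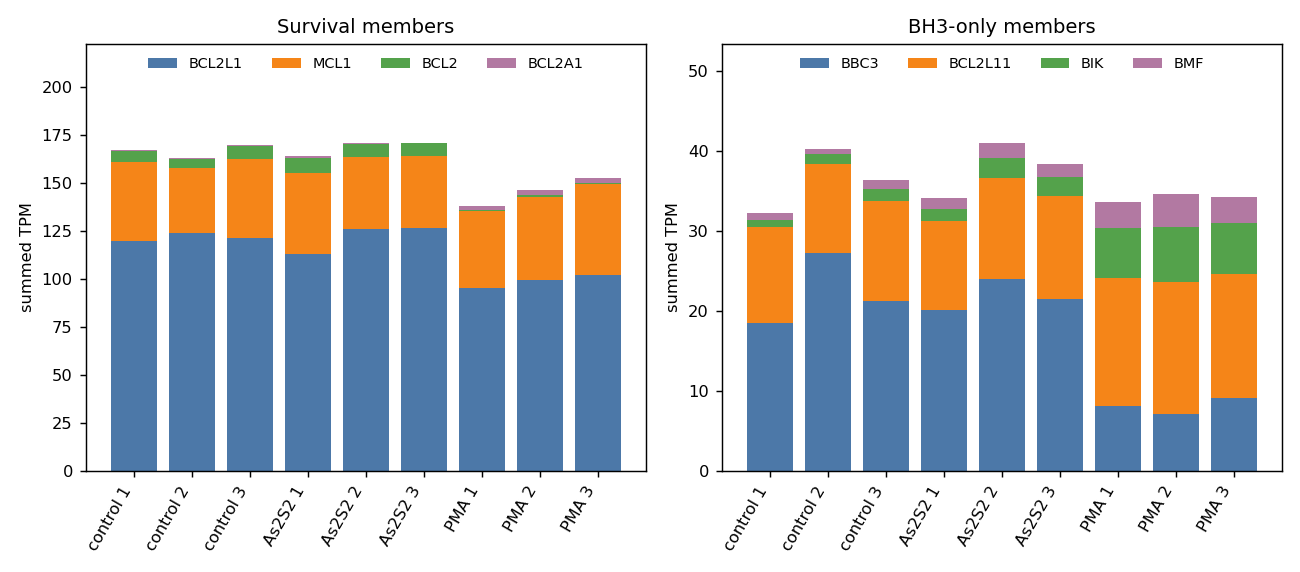
Summed TPM of the 4 survival genes (left) and the 4 BH3-only genes (right) in each of the 9 libraries, stacked by gene. The BH3-only sums of the PMA libraries (33.65 to 34.59) lie within the control range (32.26 to 40.24), while the BBC3 part shrinks and the BIK and BMF parts grow.

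Promoters are shown for BCL2, BMF and BCL2A1, members whose TMM-scaled counts changed with PMA by over 2 on the log2 scale. Each is 300 bases, from 250 before to 50 after the start, taken from RefSeq (GRCh38.p14, all on the minus strand) and printed 5′ to 3′ along the gene. Both strands were searched for the AP-1 motif TGANTCA, the E-box CACGTG, the GC box GGGCGG and the TATA box TATAAA, and capitals mark a match. The windows lie at chr18:63319720-63320019 for BCL2, chr15:40108830-40109129 for the upstream start of BMF and chr15:79971147-79971446 for BCL2A1.
BCL2: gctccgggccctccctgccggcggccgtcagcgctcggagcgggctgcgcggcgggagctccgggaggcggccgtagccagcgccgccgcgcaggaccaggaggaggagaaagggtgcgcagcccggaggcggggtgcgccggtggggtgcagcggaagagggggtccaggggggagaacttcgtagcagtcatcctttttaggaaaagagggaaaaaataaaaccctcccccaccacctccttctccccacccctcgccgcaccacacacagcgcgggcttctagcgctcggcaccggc
BMF: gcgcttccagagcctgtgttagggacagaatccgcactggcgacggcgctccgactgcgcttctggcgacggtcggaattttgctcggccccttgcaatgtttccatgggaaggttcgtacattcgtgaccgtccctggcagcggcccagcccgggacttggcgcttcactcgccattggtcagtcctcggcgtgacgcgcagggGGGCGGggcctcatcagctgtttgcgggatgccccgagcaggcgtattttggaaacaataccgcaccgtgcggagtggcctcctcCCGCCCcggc
BCL2A1: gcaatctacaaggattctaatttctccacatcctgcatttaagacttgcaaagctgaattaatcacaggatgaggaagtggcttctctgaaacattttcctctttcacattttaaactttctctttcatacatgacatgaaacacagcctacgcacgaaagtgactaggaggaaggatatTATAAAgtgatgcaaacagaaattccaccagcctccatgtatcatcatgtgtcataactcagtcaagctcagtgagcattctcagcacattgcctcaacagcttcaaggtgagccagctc
The GC content was 70.7% for BCL2, 65.0% for BMF and 41.0% for BCL2A1, beside a median of 58.7% over 35116 promoters. BMF held 2 GC boxes, a motif found in 45.0% of all promoters, and BCL2A1 held 1 TATA box, found in 11.5%. BCL2 held none of the motifs searched, and none of these 3 windows held the AP-1 motif (7.7% of all promoters) or the E-box (7.3%). The other start of BMF held none of the 4. Among the other members' promoters BAX held 4 E-boxes and 2 GC boxes, and BBC3 held 1 AP-1 motif and 1 E-box. BAK1 held 2 GC boxes and BCL2L11 held 3. BCL2L1 held 1 GC box at one start and 2 TATA boxes at its other start. Of the 10 members 8 had a promoter in the table, all but MCL1 and BIK. A match is a description of the letters, not of binding.

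Beyond the 10 members, 67 genes of the death pathway were fixed in 6 lists, also with earlier results of these data known. Of these genes 59 had enough counts. With As2S2 20 rose and 10 fell, with PMA 26 rose and 20 fell. These are 50.85% and 77.97% of those tested, beside 39.9% and 61.9% over all genes. Their medians were 0.01 and 0.08. Over all tested genes 20.3% were higher and 19.6% lower with As2S2, and 30.8% and 31.1% with PMA. The counts of each list below stand beside these shares, and no list was tested as a set. A gene named below with 1 agent can also have been called with the other. On TMM-scaled counts BCL2L12, BAD, CASP6, DYNLL2, BCAP31 and GHITM, named as rising with As2S2, were also called higher with PMA. APAF1 and USP9X were called lower with PMA, and TNFRSF10D was not called with it. In the order below, 6 of 10, 6 of 14, 4 of 6, 4 of 10, 7 of 11 and 2 of 8 were not called with As2S2. With PMA these were 2 of 10, 3 of 14, 2 of 6, 3 of 10, 2 of 11 and 1 of 8.

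In the rest of the BCL2 family, 10 of 14 genes were tested. With As2S2 3 rose and 1 fell, among them BCL2L12 (0.69 ± 0.09), BNIP3L (0.36 ± 0.08), a receptor for removal of mitochondria, and the BH3-only gene BAD (0.58 ± 0.14). With PMA 6 rose and 2 fell. PMAIP1, whose protein NOXA binds MCL1, rose from 113 ± 12.3 to 226 ± 8.02 CPM (0.998 ± 0.08, adjusted p = 3.06e-08, edgeR). BNIP3L rose by 0.66 ± 0.08 and BCL2L13 changed by -0.54 ± 0.07. BCL2L10 and HRK held 1 and 11 counts over all 9 libraries, too few to test.

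Of 14 caspase and apoptosome genes, all tested, 5 rose and 3 fell with As2S2 and 8 rose and 3 fell with PMA. APAF1, the scaffold of the apoptosome, rose with As2S2 by 0.76 ± 0.12, and the effector caspase gene CASP6 rose by 0.76 ± 0.12. With PMA, CYCS, the gene of cytochrome c, rose from 309.9 ± 4.45 to 582 ± 15.1 CPM (0.91 ± 0.08, adjusted p = 3.28e-08, edgeR). Its mean TPM, however, was lower with PMA, at 84.2 ± 4.61, than in control, at 102 ± 13.1. The direction of CYCS with PMA therefore depends on the scaling. The initiator CASP9 rose with PMA by 0.69 ± 0.09 and AIFM1 by 0.59 ± 0.08. Of 6 tested inhibitors of apoptosis, 2 rose and 0 fell with As2S2 (edgeR), and 1 rose and 3 fell with PMA. CFLAR, which blocks caspase 8, rose with both, by 0.43 ± 0.07 and 0.44 ± 0.07. BIRC5, an inhibitor made in dividing cells, rose with As2S2 by 0.46 ± 0.08 and fell with PMA by 0.59 ± 0.08, and BIRC6 changed with PMA by -0.73 ± 0.16.

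Of 10 tested death receptor and adaptor genes, 4 rose and 2 fell with As2S2, and 2 rose and 5 fell with PMA. The death receptor gene TNFRSF10B changed by -0.49 ± 0.08 with As2S2 and by -1.25 ± 0.08 with PMA, and the ligand gene TNFSF10 by -1.29 ± 0.21 and -1.59 ± 0.22. TNFRSF10D, a decoy receptor, rose with As2S2 by 1.005 ± 0.08, and TNFRSF1A changed with PMA by -0.74 ± 0.09. Among 11 tested regulators of MCL1 turnover and BH3-only genes, 2 rose and 2 fell with As2S2, and 3 rose and 6 fell with PMA. HUWE1, a ubiquitin ligase of MCL1, changed with PMA by -1.29 ± 0.09. DYNLL1, a dynein light chain that binds BIM, rose with PMA by 0.85 ± 0.07. DYNLL2, the light chain that binds BMF, rose with As2S2 by 0.35 ± 0.07, as did USP9X, a deubiquitinase of MCL1, by 0.41 ± 0.11, while DDIT3 changed by -0.46 ± 0.10. One list of 8 genes was named for the mitochondrial outer membrane and its partners, which does not place each protein in that membrane. Of these genes 4 rose and 2 fell with As2S2, and 6 rose and 1 fell with PMA. Hexokinase 2, HK2, which docks on the outer membrane, changed by -1.13 ± 0.08 and -1.68 ± 0.08. BCAP31 rose with As2S2 by 0.72 ± 0.07 and GHITM by 0.39 ± 0.06, and with PMA the channel gene VDAC3 rose by 1.16 ± 0.09 and TMBIM6 by 0.77 ± 0.06.

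For 4 members the genes with the most similar pattern of log2 CPM over the 9 libraries were taken from the 9775 genes whose mean reached 5 CPM. They were CAMK1D (Pearson r = 0.999) and SNTB1 (0.998) for BCL2, NDUFA11 (0.987) and AKT1S1 (0.964) for BCL2L1, SMIM8 (0.996) and ATP6V1A (0.994) for MCL1, and HBEGF (0.995) and TBCCD1 (0.980) for BCL2L11. These are descriptions over libraries that share groups, scaling and depth.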

How the data were processed

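RNA-seq of 9 MEG-01 libraries was analysed from 2 deposited tables, treated against control, whose control values differed in 0 cells. Per the file headers the authors gave each gene estimated counts (expected counts) and TPM per library, with a log2 ratio and its adjusted p-value. The submitters' processing notes name fastp 0.22.0, DESeq2 and zebrafish genome builds, while the gene IDs are human Ensembl IDs. The organism label of 1 control sample is also not human. For the aligner, counter, strand setting and annotation nothing is given in the sources used here. Reads of overlapping genes may be mixed. Columns without a sample numbered 0.

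The deposited counts were rounded to whole numbers, filtered with filterByExpr, scaled with TMM and tested with the quasi-likelihood test of edgeR 4.0.16 (R 4.3.3) over all 9 libraries, with Benjamini-Hochberg adjustment over 14592 genes and a threshold of 0.05. Library totals were 18200468 to 20366837 counts, and low counts limit BCL2A1 and BIK. Standard errors of the edgeR fits were derived from each log2 fold change and its F statistic, and the intervals were built from them. Intervals cover the spread between libraries. Alternatives were other scalings, filters, 2-group fits, libraries left out, a threshold of 0.01, DESeq2 1.42.0 and limma 3.58.1 on log2(TPM + 1). On simulated data for As2S2 against control, 86.2% of 195 tested genes with a log2 change of 1 were called, over 13928 genes tested. Of the calls 4.55% were false. The simulation gave every gene the same dispersion and held no library that stood apart. It therefore does not give the share called for smaller changes, or with the libraries that stood apart here. All 10 members were named, and up to 3 called genes of each list, in order of adjusted p, in each comparison with control. Some genes that this rule names are not reported here. The members and lists were chosen with earlier results of these data known. Symbols matched 62666 of the IDs.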

Additional observations from a re-analysis of the deposited data

How the results depend on the processing

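Of the alternatives for single members, 550 kept the direction and the side of the threshold, 12 turned sign without passing in either fit, 23 passed where the reported value did not, 6 lost the call and 5 reversed. These numbers include a stricter threshold of 0.01 applied to the main fit itself. With it the direction could not change and no further member could pass. The reversals were BCL2L1 (-0.30) and BAX (-0.33) for PMA against control, and BCL2L1 (0.30) and BAK1 (0.033) for As2S2 against PMA, in the fit of log2(TPM + 1), and BCL2L1 (0.15) for As2S2 against PMA with library totals alone. Members rising with As2S2 numbered 8 without both libraries that stood apart and 3 in the TPM fit, members falling with PMA numbered 4 in the TPM fit, and members higher with As2S2 than with PMA numbered 4 with library totals alone and 4 in the TPM fit. The cause was not tested. Of all calls, the share that was higher was 50.9% (As2S2), 49.7% (PMA) and 50.2% (As2S2 against PMA) with TMM, 39.3%, 31.3% and 62.9% with library totals alone, and 35.5%, 22.0% and 72.0% in the TPM fit. Leaving out 1 library gave 5 to 7 rising and 0 falling members with As2S2, 6 to 8 rising and 2 falling with PMA, and 2 to 3 higher and 5 to 6 lower for As2S2 against PMA. Called genes of the 6 lists then numbered 23 to 30, 40 to 46 and 33 to 38. The labels do not state whether replicate numbers pair the libraries. Correlations were -0.073 to 0.149 between libraries of the same number and -0.215 to 0.149 between those of different numbers. With 3 libraries per group these values do not settle whether the libraries were paired. With the replicate block 5 members rose and 0 fell with As2S2, 6 rose and 2 fell with PMA, and 2 were higher and 6 lower for As2S2 against PMA. BCL2A1 gave no value under the stricter filter, nor with As2S2 in the 2-group fit.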
